A study of Mus musculus with 40 samples.

Results

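Cdkn2a, Cdkn2b, Mtap, Braf, Trp53 and Mdm2 are 6 of the 51789 genes counted in 3 mouse melanoma cell lines. They were taken by name as loci that drive melanoma, with Mtap as the neighbour of Cdkn2a, and they were chosen by their levels over the 20 groups, which differ between the lines and are silent or near it in some. Their levels over the lines are therefore a description, with no test. The study asked how the clock transcription factor Bmal1 (gene symbol Arntl) acts in melanoma cells, and it sequenced the 3′ ends of messenger RNA in 40 libraries that form 20 groups of 2. The study calls the libraries of several of these experiments biological replicates, and the sources used here do not say what separated the 2 libraries of a group. Each p-value measures only the spread between them. An exact 2-sided permutation of 2 against 2 libraries cannot give a p below 0.333, and all tests are therefore from models fitted over all genes.

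B16-F10 is a metastatic mouse melanoma line, represented by a Bmal1 knockout clone (KO) and a control clone, with 2 libraries each. YUMM1.7 came from mouse tumors with an activated Braf allele (a valine-to-glutamate change in the kinase domain) and no Cdkn2a (Cdkn2a-/-). YUMM2.1 came from tumors with the same Braf change, Cdkn2a+/- and a heterozygous stabilized β-catenin. YUMM2.1 was sorted for a GFP-marked lentivirus carrying no insert (EV), WT-Bmal1, or dHLH-Bmal1, which lacks the DNA-binding domain. The YUMM1.7 libraries are labelled with the same 3 constructs, and the sources used here do not describe how these cells were made. aC3 is a single CRISPR clone of YUMM2.1 without functional Bmal1, and it received the same 3 constructs. The study's methods describe construct lines of both YUMM2.1 and aC3 made on cells that carry a Bmal1::dLUC reporter. A further 9 groups of YUMM2.1 combined each construct with a hairpin against Myh9 (shMyh9#2 or shMyh9#4) or a control hairpin (shNC), under puromycin. YUMM2.1 thus has 24 libraries, YUMM1.7 and aC3 have 6 each, and B16-F10 has 4. YUMM2.1 comes from a construct set and a hairpin set, and the labels name no batch, so line and library preparation cannot be told apart.

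The Cdkn2a locus encodes 2 unrelated proteins from separate first exons. Ink4a blocks the cyclin D kinases that inactivate the retinoblastoma protein, and Arf binds Mdm2, the ubiquitin ligase that degrades p53. Cdkn2b is a second INK4 inhibitor beside it. Mtap, the next coding gene with an abundant transcript, is the first enzyme of methionine salvage and recycles the methylthioadenosine left by polyamine synthesis. In human melanoma the region is often deleted as a block, and Mtap is lost with Cdkn2a as a passenger. Braf is the kinase that feeds growth signals into the MAP kinase cascade, and Trp53 encodes p53.

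In the GRCm38 assembly Mtap lies on the forward strand of chr4:89137122-89181081, Cdkn2a on the reverse strand of chr4:89274471-89294653, and Cdkn2b on the reverse strand of chr4:89306299-89311039. The gap between Mtap and Cdkn2a is 93.4 kb, and that between Cdkn2a and Cdkn2b is 11.6 kb. The 2 Cdkn2a transcripts start 12.5 kb apart and end within 70 bases of each other, so counts of 3′ ends cannot tell Ink4a from Arf. The starts of both Cdkn2a transcripts and of Mtap are shown because no YUMM2.1 library held a Cdkn2a count and nearly none an Mtap count, while every B16-F10 and YUMM1.7 library held both. They are the RefSeq promoter windows of GRCm38.p6, with 250 bases before the RefSeq start in lower case and 50 transcribed bases in capitals. RefSeq starts can differ from those of the gene spans above. The Mtap window begins at 89137120 and the Mtap span at 89137122, so most lower-case bases of that window lie inside the span.
Cdkn2a upstream start, chr4:89294570-89294869, reverse strand: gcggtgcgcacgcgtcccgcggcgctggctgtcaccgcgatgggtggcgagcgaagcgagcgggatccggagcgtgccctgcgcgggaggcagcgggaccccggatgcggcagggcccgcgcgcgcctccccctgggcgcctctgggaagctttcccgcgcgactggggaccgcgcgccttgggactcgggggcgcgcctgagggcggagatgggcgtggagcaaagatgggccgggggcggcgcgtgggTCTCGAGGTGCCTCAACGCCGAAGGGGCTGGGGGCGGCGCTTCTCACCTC
Cdkn2a downstream start, chr4:89282143-89282442, reverse strand: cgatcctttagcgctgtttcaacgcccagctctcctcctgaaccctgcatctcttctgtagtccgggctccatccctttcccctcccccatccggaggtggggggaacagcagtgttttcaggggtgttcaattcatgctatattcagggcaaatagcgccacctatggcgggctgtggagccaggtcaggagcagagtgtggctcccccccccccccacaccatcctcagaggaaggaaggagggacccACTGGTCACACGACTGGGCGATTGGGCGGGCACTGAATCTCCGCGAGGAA
Mtap start, chr4:89137120-89137419, forward strand: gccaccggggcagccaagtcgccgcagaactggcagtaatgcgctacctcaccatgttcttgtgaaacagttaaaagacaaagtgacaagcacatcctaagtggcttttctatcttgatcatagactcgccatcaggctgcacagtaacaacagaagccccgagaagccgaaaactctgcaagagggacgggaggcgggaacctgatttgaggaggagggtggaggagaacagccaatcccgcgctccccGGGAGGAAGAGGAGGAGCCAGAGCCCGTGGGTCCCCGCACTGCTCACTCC
The E-box CACGTG, the palindromic site that Bmal1 and its partner Clock bind and that reads alike on both strands, was in 1 of the 7 promoter windows of the 6 genes, against 7.15% of 32851 promoters of 300 bases. That window was at Trp53 (chr11:69580109-69580408, forward strand), where the site starts 10 bases into the transcript, in capitals here.
Trp53 window: actttcccctccCACGTGctcaccctggct

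Depth was 19348395 to 22970049 counts a library in B16-F10, 9554182 to 11035156 in YUMM1.7, 3643332 to 17485144 in YUMM2.1 and 9347467 to 11006516 in aC3. At these depths a count of 0 in 1 library allows a level of up to 0.845 CPM (counts scaled to a common library size) in the shallowest YUMM2.1 library. Intervals and limits here cover counting error only. Of 7 melanocytic markers, all reached 1 CPM in every B16-F10 library, 1 in every YUMM1.7 library and 2 in every YUMM2.1 and aC3 library. The summed level of these markers was 19753 to 26037 CPM in B16-F10, 10.7 to 14.8 in YUMM1.7, 31.5 to 558 in YUMM2.1 and 453 to 626 in aC3. Tyrp1 and Mlana were at 0 in both YUMM lines and in aC3. The summed haematopoietic markers stayed at or below 3.95 CPM in every library, and Cd3e was at 0 in all 40. The endothelial markers Pecam1 and Cdh5 summed to 3.75 to 4.95 CPM in B16-F10 and 12.1 to 22.4 in YUMM1.7. Their sum was 7.96 to 26.4 CPM in YUMM2.1 and 6.70 to 12.011 in aC3. In YUMM1.7 both reached 1 CPM in every library, and their summed range overlapped that of the melanocytic markers. The source of these counts was not tested.

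The targeted genes were counted in every group. Arntl measured 10.7 and 15.2 CPM in the B16-F10 control libraries and 11.5 and 13.3 CPM in the knockout libraries, which overlap. In YUMM2.1 it measured 13.9 and 15.9 CPM with EV, 13.9 and 18.2 CPM with WT-Bmal1, and 35.4 to 51.1 CPM with dHLH-Bmal1. In aC3 it was lower with WT-Bmal1 (17.5 and 18.2 CPM) than with EV (30.5 and 33.1 CPM) and measured 31.8 and 45.4 CPM with dHLH-Bmal1. YUMM1.7 held 8.46 to 8.61 CPM with EV, 12.5 to 14.7 CPM with WT-Bmal1 and 14.7 to 20.5 CPM with dHLH-Bmal1. Whether a construct's transcript carries the counted 3′ end is not given in the sources used here. A 3′ tag beyond an edited exon does not test a knockout, so these values check neither the B16-F10 label nor that of aC3. Myh9 measured 665 to 703 CPM in EV cells with shNC, 229 to 248 with shMyh9#2 and 465 to 492 with shMyh9#4. It measured 948 to 993, 234 to 241 and 477 to 538 CPM in WT-Bmal1 cells, and 877 to 908, 263 to 291 and 635 to 678 CPM in dHLH-Bmal1 cells, in the same order.

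Cdkn2a was counted at a low level in B16-F10 and YUMM1.7 and was at 0 in all 30 libraries of YUMM2.1 and aC3. The B16-F10 control libraries held 26 and 6 counts and the knockout libraries 23 and 2, which is 1.24, 0.291, 0.937 and 0.0959 CPM. In each of these groups 1 library was several times higher than the other, and the groups overlap. The YUMM1.7 libraries held 5 and 7 counts (EV), 8 and 7 (WT-Bmal1) and 5 and 1 (dHLH-Bmal1), at 0.0908 to 0.713 CPM with a median of 0.562. Over all libraries of a line, the exact 95% Poisson interval was 0.496 to 0.849 CPM in B16-F10 (57 counts) and 0.347 to 0.709 CPM in YUMM1.7 (33 counts), and these intervals overlap. The 24 YUMM2.1 libraries together allow at most 0.0135 CPM, and the 6 aC3 libraries at most 0.0485 CPM, at 3 counts over the pooled depth. The limit of a single library was 0.178 to 0.845 CPM in YUMM2.1 and 0.268 to 0.322 CPM in aC3, so the deeper libraries reached below both intervals and the shallowest did not.

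The labelled genotypes and the counts run in opposite order. YUMM1.7, labelled Cdkn2a-/-, held Cdkn2a counts in each of its 6 libraries, and YUMM2.1, labelled Cdkn2a+/-, held none in 24. A 3′ tag outside a deleted part does not check a deletion, and which exons the alleles lack is not given in the sources used here.

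Cdkn2b was all but absent from the table. It had 1 count, in the first B16-F10 knockout library, and 0 in the other 39 libraries, so its level could not be compared between lines.

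Mtap had the widest range of the 6 genes. It measured 188 and 186 CPM in the B16-F10 control libraries and 214 and 254 CPM in the knockout libraries, from 3841 to 5291 counts a library. In YUMM1.7 the pairs were 179 and 183 CPM (EV), 171 and 184 CPM (WT-Bmal1) and 191 and 192 CPM (dHLH-Bmal1). The B16-F10 and YUMM1.7 ranges overlap. YUMM2.1 held 2 Mtap counts in its 24 libraries together, with 22 libraries at 0. aC3 held 0 and 2 counts (EV), 3 and 1 (WT-Bmal1) and 2 and 5 (dHLH-Bmal1), at most 0.537 CPM, with a pooled interval of 0.112 to 0.360 CPM. Mtap and Cdkn2a are transcribed towards each other, and Mtap overlaps the pseudogene Gm12607. In bulk samples, fewer cells with a transcript and less RNA per cell cannot be told apart, and the same holds for the few aC3 counts.

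**Figure D1:**
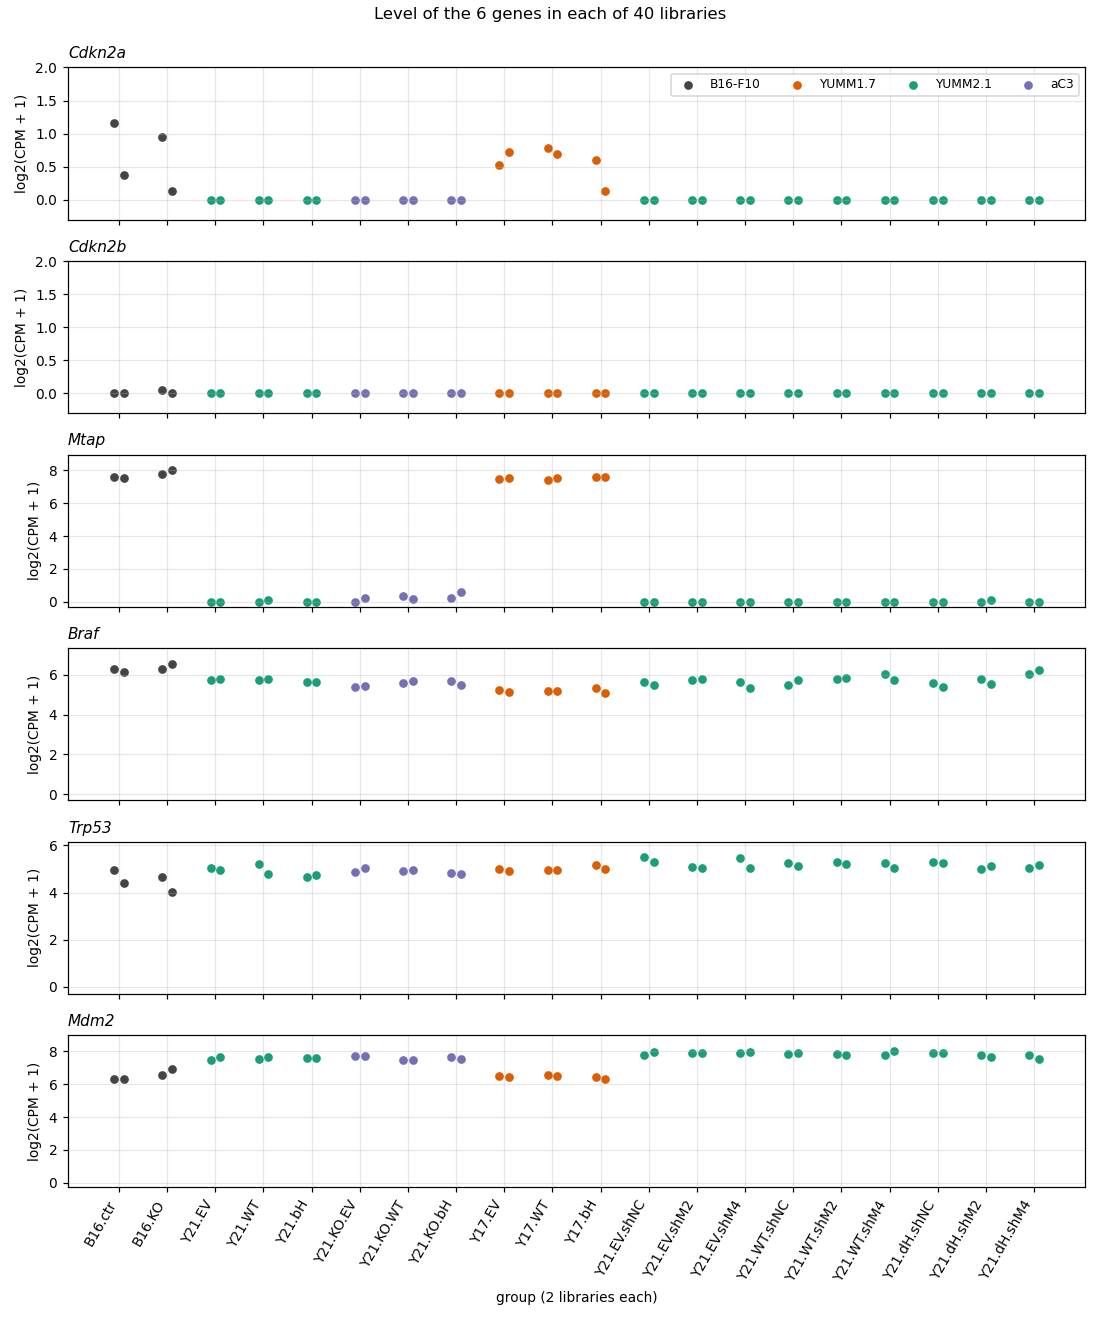
Level of each of the 6 genes in every library, as log2(CPM + 1) on the vertical axis, with a pair of points for the 2 libraries of each group and colors for the lines (Y21 is YUMM2.1, Y17 is YUMM1.7, Y21.KO is aC3, ctr is control, bH and dH are dHLH-Bmal1, shM2 and shM4 are the Myh9 hairpins). Mtap sits at 171 to 254 CPM in B16-F10 and YUMM1.7 and at or below 0.537 CPM in every other library, and Mdm2 sits higher in YUMM2.1 and aC3 (175 to 259 CPM) than in the other lines (78.6 to 122 CPM).

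The genes around Cdkn2a showed how far the absence of counts reached along chromosome 4. Of 110 annotated genes within 3 Mb on either side, 67 had no count in any library and 24 reached 10 counts in at least 1. A run of 13 of these 24, from Focad to Dmrta1 and including Mtap and Cdkn2a, had at most 5 counts in every YUMM2.1 and aC3 library. The run spans chr4:88094629-89694772, or 1600 kb. Its genes summed to 11 counts over 24 YUMM2.1 libraries and 22 counts over 6 aC3 libraries, against 24782 counts over 6 YUMM1.7 libraries and 24440 counts over 4 B16-F10 libraries. Mtap alone gave 2, 13, 11976 and 18326 of these counts, in the same order. The 13 genes reached 10 counts only in B16-F10 or YUMM1.7, so the direction of this contrast was set by how they were found. The limit of 5 counts is also the highest Mtap count in an aC3 library. The span was found from these counts and so gets no test.

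The run holds genes of unrelated function. Focad, which encodes a focal adhesion protein, measured 15.0 to 16.8 CPM in B16-F10 and 11.7 to 15.5 CPM in YUMM1.7. Klhl9, an adaptor of a cullin ubiquitin ligase, measured 28.4 to 48.5 CPM in B16-F10 and 41.2 to 51.0 CPM in YUMM1.7. Hacd4, a dehydratase of fatty acid elongation, measured 4.31 to 13.0 CPM in B16-F10 and 11.3 to 15.9 CPM in YUMM1.7. These ranges overlap between B16-F10 and YUMM1.7 for each of the 3 genes.

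Other genes of the run also separated YUMM1.7 from B16-F10. Dmrta1, a DM-domain transcription factor gene, measured 16.3 to 20.2 CPM in YUMM1.7 and 0 in B16-F10. Gm12606, a long noncoding RNA gene on the reverse strand whose near side lies 1.07 kb from Cdkn2a, measured 68.5 to 89.4 CPM in YUMM1.7 and 0 in B16-F10. A count of 0 for such a gene therefore was not particular to YUMM2.1, while Focad, Klhl9 and Mtap were counted in every B16-F10 and YUMM1.7 library.

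Genes on both sides of the run were counted in YUMM2.1. Rps6, a ribosomal protein gene, and Plin2, which coats lipid droplets, were counted in all lines, as were Rraga, Haus6, Dennd4c and Acer2. Mllt3, a transcription elongation factor gene and the next gene before Focad, measured 55.3 to 64.6 CPM in B16-F10, 69.5 to 79.3 in YUMM1.7, 0 to 4.29 in YUMM2.1 and 0 to 0.308 in aC3. Elavl2, an RNA-binding protein gene beyond Dmrta1, went the other way, at 0.83 to 15.5 CPM in YUMM2.1 and 6.3 to 11.2 CPM in aC3. RNA counts do not separate a deleted segment from a silent one, and the copy number of the region was not tested.

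**Figure D2:**
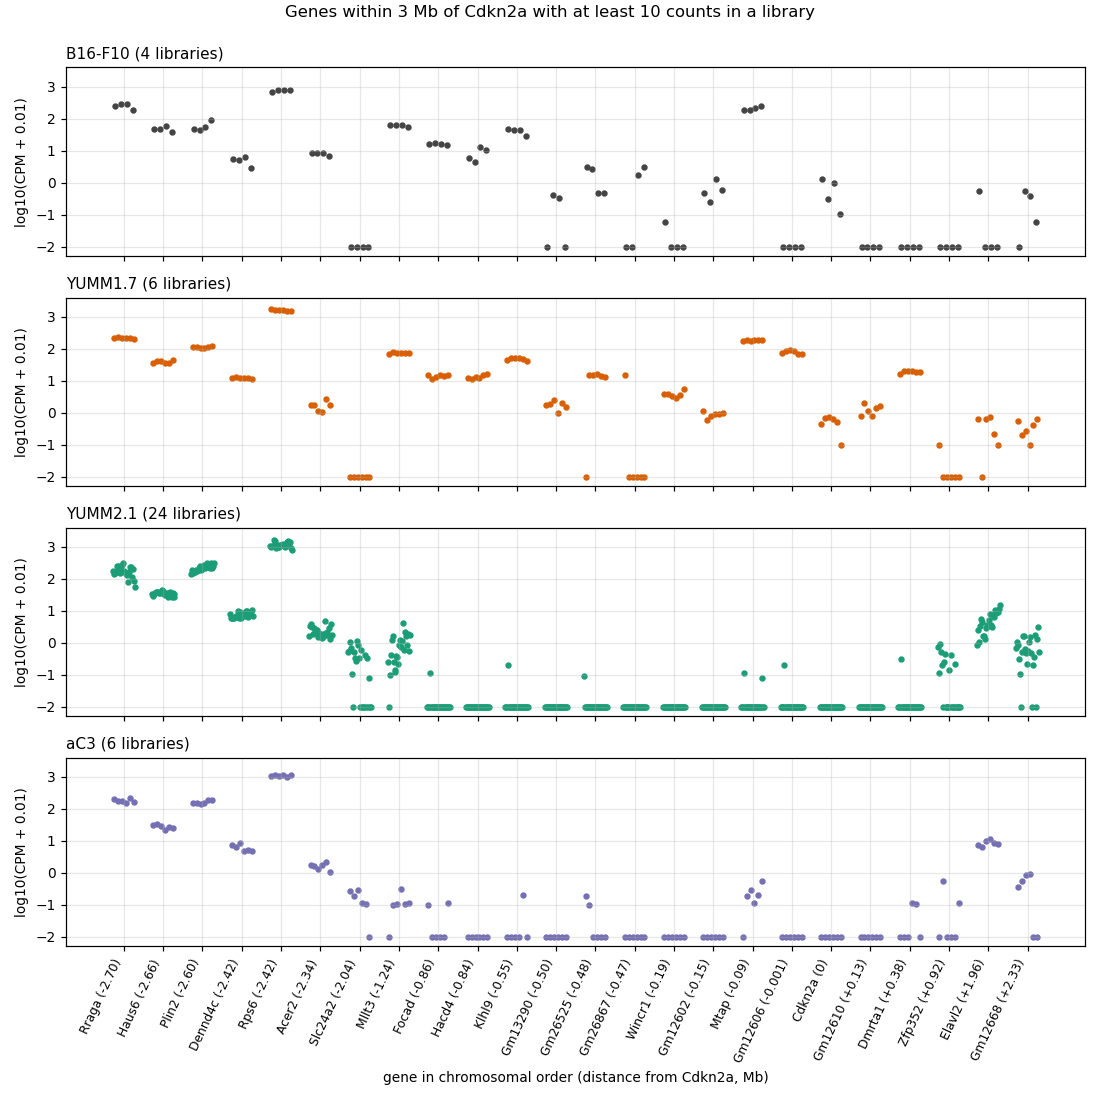
Level, as log10(CPM + 0.01), of the 24 genes within 3 Mb of Cdkn2a that reached 10 counts in a library, in chromosome order with the distance from Cdkn2a, in 1 panel per line. Each point is 1 library, and points at the bottom are counts of 0. YUMM2.1 and aC3 sit at or near 0 for the 13 genes from Focad to Dmrta1, while Rps6 and Plin2 before them are counted in every line.

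Braf (chr6:39603237-39725463, reverse strand) was counted in every library. It measured 77.9 and 68.6 CPM in the B16-F10 control libraries and 77.2 and 92.0 CPM in the knockout libraries. In YUMM1.7 it measured 33.2 to 38.9 CPM with a median of 35.6, in aC3 41.3 to 49.995 with a median of 45.2, and in YUMM2.1 38.8 to 73.0 with a median of 51.8. The order of the medians was B16-F10, YUMM2.1, aC3 and YUMM1.7, and of the neighbors in this order only aC3 and YUMM1.7 had no overlap. The end of Braf overlaps Ndufb2, a subunit gene of respiratory complex I on the other strand, by 146 bases. The counting strand is not given in the sources used here, so reads in the overlap cannot be assigned. A 3′ count also does not tell the activated Braf allele from the normal one.

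Trp53 (chr11:69580359-69591873, forward strand) had ranges that overlapped in every pair of lines. It measured 30.4 and 20.3 CPM in the B16-F10 control libraries and 23.97 and 15.4 CPM in the knockout libraries. It measured 29.1 to 35.3 CPM in YUMM1.7, 24.6 to 44.0 CPM in YUMM2.1 and 26.4 to 31.6 CPM in aC3. The medians were 22.1, 30.4, 33.7 and 28.7 CPM in the same order. A transcript count says nothing of the amount of p53 protein, which Mdm2 sets largely after translation.

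Mdm2 (chr10:117688875-117710758, reverse strand) split the lines into 2 levels. It measured 78.8 and 78.6 CPM in the B16-F10 control libraries and 93.2 and 122 CPM in the knockout libraries, and 80.5 to 92.7 CPM in YUMM1.7. In YUMM2.1 it measured 177 to 259 CPM with a median of 223, and in aC3 175 to 214 CPM with a median of 197. No library of YUMM2.1 or aC3 overlapped a library of B16-F10 or YUMM1.7. B16-F10 overlapped YUMM1.7, and YUMM2.1 overlapped aC3. Within YUMM2.1 the 18 hairpin libraries measured 182 to 259 CPM and the 6 libraries without a hairpin 177 to 202 CPM.

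The genes most like each member over the 20 groups were named by the Pearson correlation of log2 CPM, as a description, since the groups fall by line and share its libraries. Focad (0.997), Klhl9 (0.997) and Ssbp3 (0.995) were most like Mtap. Slc6a15 (0.979), Zfp810 (0.979) and Klhl9 (0.977) were most like Cdkn2a. Tusc1 (0.971), Foxl2 (0.970) and Kcnj12 (0.968) were most like Mdm2. The closest genes to Braf (Gpsm3, 0.927) and Trp53 (Msl3, 0.876) were less alike, and Cdkn2b was too rare to be compared.

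The next comparisons asked whether the 6 genes moved with Bmal1 or Myh9 within a line, which is a contrast that did not choose them. Each experiment was fitted over all genes that passed a filter on low counts, with the quasi-likelihood test of edgeR and Benjamini-Hochberg adjustment, and a gene was called at an adjusted p under 0.05. Braf, Trp53 and Mdm2 passed the filter in all 16 comparisons, Mtap in 3, Cdkn2a in 1 and Cdkn2b in 0. Of these 52 tests, 2 were called and 3 had an unadjusted p under 0.05. Several comparisons share their control libraries and are not independent.

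In B16-F10, 0 of 5 members were called between the knockout and control clones, where 0.44% of genes were called. None of the 5 had an unadjusted p under 0.05, and the DESeq2 Wald test also called 0. Mdm2 had a log2 fold change of 0.44 (SE 0.19, adjusted p = 0.449) and Mtap one of 0.31 (SE 0.17, adjusted p = 0.52). Cdkn2a had one of -0.54 (SE 1.15, adjusted p = 0.855), a value its counts leave almost undetermined. The fit gave 4 calls without the first knockout library, for Mdm2, Mtap, Braf and Trp53, but 6612 of 15235 genes were then called, and one fit of all 40 libraries called Mdm2 (adjusted p = 0.00534).

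In YUMM1.7, 0 of 4 members were called with WT-Bmal1 (0.138% of genes called) and 0 of 4 with dHLH-Bmal1 (0.63%). Mtap measured a log2 fold change of -0.02 (SE 0.06) with WT-Bmal1 and 0.09 (SE 0.06) with dHLH-Bmal1 (adjusted p = 0.948 and 0.653). In YUMM2.1, 0 of 3 members were called with WT-Bmal1, where 0% of genes were called, and 0 of 3 with dHLH-Bmal1, where 13.2% were. The comparison of WT-Bmal1 with EV in YUMM2.1 called 0 of 14323 genes by edgeR and 0 by the DESeq2 Wald test, with 98 genes at an unadjusted p under 0.05. Its libraries did not group by label, and the sources used here do not settle whether labels were exchanged. EV and WT-Bmal1 libraries with the same number correlated at 0.985 and 0.980, above 0.971 for the EV pair and 0.978 for the WT-Bmal1 pair. With the labels of EV library 2 and WT-Bmal1 library 1 exchanged, 101 genes were called. The same EV libraries enter the comparisons between lines.

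In aC3, Mdm2 fell with WT-Bmal1. It measured 214 and 208 CPM (EV), 175 and 177 CPM (WT-Bmal1) and 204 and 189 CPM (dHLH-Bmal1). Both WT-Bmal1 libraries were below all others. The log2 fold change of WT-Bmal1 against EV was -0.27 (SE 0.08, adjusted p = 0.047), 1 call among 3 members where 11.2% of genes were called. Against the same EV libraries, dHLH-Bmal1 gave 0 of 3 calls (10.9% of genes called), with Mdm2 at -0.12 (SE 0.08, adjusted p = 0.394). WT-Bmal1 against dHLH-Bmal1 also gave 0 of 3 (0.877%), with Mdm2 at -0.15 (SE 0.08, adjusted p = 0.495), so a difference between the constructs was not shown. The Mdm2 call was lost on leaving out any 1 of the 4 libraries (adjusted p = 0.193 to 0.257) and in one fit of all 40 libraries (adjusted p = 0.23). The change in aC3 differed from that in YUMM2.1 by -0.28 (SE 0.15, adjusted p = 0.744).

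Other genes of the p53 pathway were counted in that comparison. Of 13 genes of the p53 family and its regulators, 1 was called, where 11.2% of all genes were. Mdm4, the partner of Mdm2 in holding p53 down, rose from 84.8 ± 1.94 to 109 ± 3.38 CPM (SD, n = 2), a log2 fold change of 0.36 (SE 0.10, edgeR adjusted p = 0.0366). Of 22 p53 target genes tested, 1 rose and 3 fell, beside 4.92% and 6.28% of all genes. Aen, an apoptosis nuclease gene, fell from 93.6 ± 0.166 to 62.6 ± 2.65 CPM (SD, n = 2), Rrm2b and Sesn2 fell, and Trp53inp1 rose. dHLH-Bmal1 against the same EV libraries also gave 4 calls among 22, with Bbc3 and Trp53inp1 higher and Aen and Rrm2b lower (10.9% of all genes called), and WT-Bmal1 against dHLH-Bmal1 gave 0 of 22. Cdkn1a, the CDK inhibitor most used as a readout of p53, had a log2 fold change of -0.22 (SE 0.10, adjusted p = 0.185), and the cyclin gene Ccng1 one of -0.25 (SE 0.08, adjusted p = 0.0722).

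In the hairpin experiment, 0 of 3 members were called with WT-Bmal1 (22.3% of genes called) or dHLH-Bmal1 (26.4%) against EV under shNC. The Myh9 hairpins gave 0 of 3 calls in EV cells with shMyh9#2 (6.65%) and shMyh9#4 (1.71%), in WT-Bmal1 cells with shMyh9#2 (4.76%) and shMyh9#4 (0.236%), and in dHLH-Bmal1 cells with shMyh9#2 (0.559%). In dHLH-Bmal1 cells with shMyh9#4, 1 of 3 was called, where 15.1% of genes were called, 6.28% higher and 8.86% lower. Trp53 had the remaining unadjusted p under 0.05, with shMyh9#2 in EV cells, at a log2 fold change of -0.35 (SE 0.16, adjusted p = 0.219).

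The call in dHLH-Bmal1 cells was Braf, which rose with shMyh9#4. It measured 63.7 and 73.0 CPM with the hairpin and 47.2 and 41.4 CPM with shNC, with no overlap, a log2 fold change of 0.65 (SE 0.15, adjusted p = 0.0096). These hairpin libraries had 3643332 counts, the lowest of the study, and 6001340 counts, and held 226 and 420 Braf counts. The part of their depth in the result was not tested. The call was lost without the second shNC library (adjusted p = 0.0814) and without the second hairpin library (adjusted p = 0.152). Ndufb2, the gene that overlaps the end of Braf, had a log2 fold change of -0.14 (SE 0.11, adjusted p = 0.439) in the same comparison.

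With the same hairpin, Braf measured 47.8 and 38.8 CPM in EV cells against 48.0 and 44.0 CPM with shNC, a log2 fold change of -0.09 (SE 0.15, adjusted p = 0.910). In WT-Bmal1 cells it measured 64.7 and 51.7 CPM against 44.2 and 51.2 CPM, a log2 fold change of 0.28 (SE 0.15, adjusted p = 0.479). shMyh9#2 gave no Braf call with any construct.

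**Figure D3:**
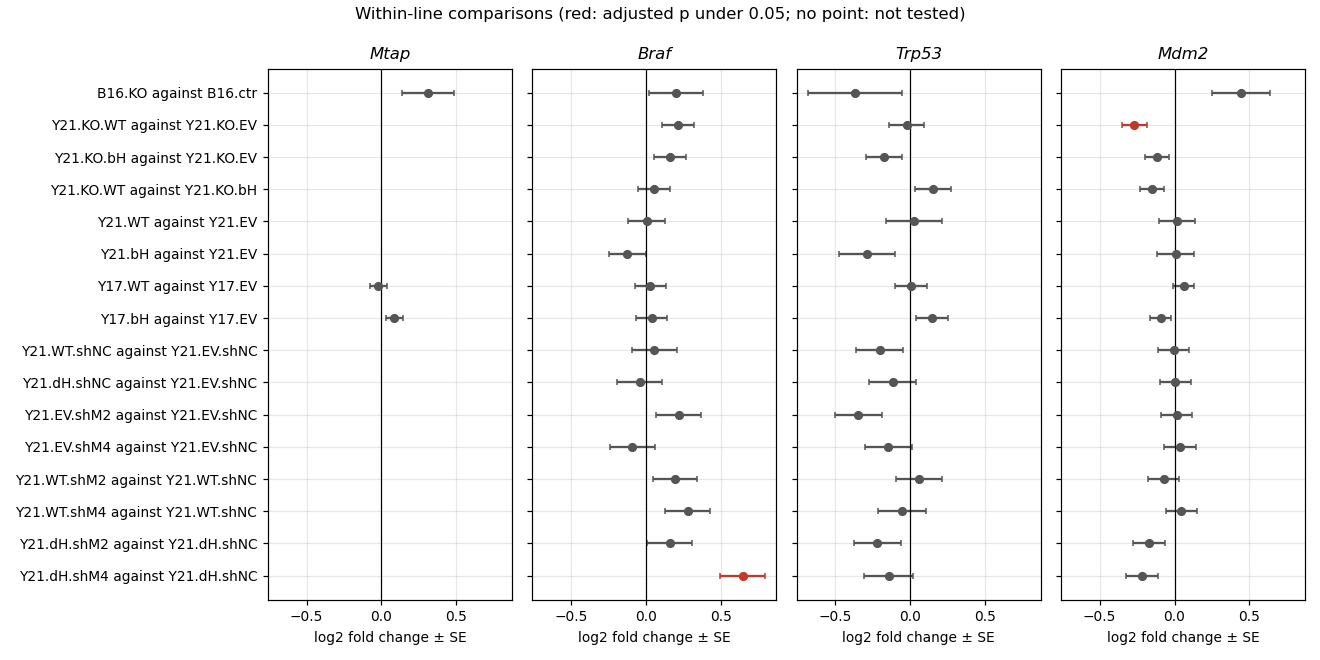
log2 fold change (horizontal axis) of Mtap, Braf, Trp53 and Mdm2 in each of the 16 comparisons within a line (vertical axis), with bars of 1 SE, called changes in red and no point where a gene was not tested. In the group names Y21 is YUMM2.1, Y17 is YUMM1.7, KO is the B16-F10 knockout or aC3, bH and dH are dHLH-Bmal1, and shM2 and shM4 are shMyh9#2 and shMyh9#4. Red points mark Mdm2 in aC3 with WT-Bmal1 (-0.27) and Braf in dHLH-Bmal1 cells with shMyh9#4 (0.65).

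Most changes within the lines, over 16 comparisons, were not called. Those not called ran in log2 fold change from -0.12 to 0.28 for Braf, -0.37 to 0.15 for Trp53 and -0.21 to 0.44 for Mdm2. Their SEs were 0.10 to 0.18, 0.11 to 0.31 and 0.07 to 0.19. The lowest Trp53 value, the highest Mdm2 value and the largest SE of each gene came from the B16-F10 knockout against its control, without construct or hairpin. Mtap and Cdkn2a stayed at or near 0 in every YUMM2.1 and aC3 group, whichever construct or hairpin it carried.

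The genes that work with the members were then compared between the lines in control cells, from lists that leave the members out. A fit of the 8 control or EV libraries called 37.1% of 15177 genes between YUMM1.7 and YUMM2.1, 54.3% between B16-F10 and YUMM2.1, 54.5% between B16-F10 and YUMM1.7, and 1.75% between aC3 and YUMM2.1. The same EV libraries of YUMM2.1 enter 3 of these comparisons.

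Most p53 target genes that were called were lower in YUMM1.7 than in YUMM2.1. Mdm2, itself a p53 target, is left out of the count. Of 23 tested, 12 were lower and 2 were higher, beside 19.3% and 17.8% of all genes, with a median log2 fold change of -0.48. The count of lower genes ran from 8 to 13 over the other settings. Cdkn1a measured 210 ± 4.68 CPM in YUMM1.7 and 813 ± 121 CPM in YUMM2.1 (SD, n = 2), a log2 fold change of -1.96 (SE 0.12, edgeR adjusted p = 1.31e-06). Plk2, a polo-like kinase gene, was lower by more, at -3.11 (SE 0.23, edgeR adjusted p = 4.75e-06), and Ephx1, an epoxide hydrolase gene, was lower at -1.48 (SE 0.12). Ccng1 was lower at -0.41 (adjusted p = 0.0211). Gdf15, a stress cytokine gene, and Sesn2, a sestrin gene (0.86), were the 2 higher genes.

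Against the same YUMM2.1 libraries, B16-F10 had 13 p53 targets lower and 2 higher of 23, beside 29.2% and 25% of all genes, with a median of -0.83. Cdkn1a measured 292 ± 20.9 CPM in B16-F10 (SD, n = 2), a log2 fold change of -1.50 (SE 0.12, edgeR adjusted p = 3.23e-06). Plk2 was lower at -4.04 and Ccng1 at -1.23. Rrm2b, a ribonucleotide reductase gene, and Xpc, a DNA damage sensor gene, were higher. Between B16-F10 and YUMM1.7 the counts were closer, at 8 lower and 5 higher, beside 28.2% and 26.3%, with a median of -0.10.

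aC3, the clone that lacks Bmal1, had 1 p53 target higher than its parent line and 0 lower, beside 0.441% and 1.3% of all genes. That gene was Ccng1, at 232 ± 6.23 against 157 ± 26.8 CPM (SD, n = 2), a log2 fold change of 0.56 (SE 0.12, edgeR adjusted p = 0.048). Cdkn1a had one of 0.54 (SE 0.12, adjusted p = 0.052). Over the other settings the count of higher p53 targets was 0 to 6. Among 13 p53 family and regulator genes, without Trp53 and Mdm2, 2 were higher and 2 lower in YUMM1.7 than in YUMM2.1. These counts stood beside 17.8% and 19.3% of all genes. In aC3 against YUMM2.1, 0 of the 13 were called, where only 1.75% of all genes were.

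The INK4, cyclin and RB genes, the pathway that Ink4a restrains, differed by line in both directions. In YUMM1.7 against YUMM2.1, 1 of 18 was higher and 8 were lower, beside 17.8% and 19.3% of all genes. Cdkn2d, an INK4 gene on another chromosome, measured 36.0 CPM in YUMM1.7 and 91.6 CPM in YUMM2.1 (log2 fold change -1.36, SE 0.12, edgeR adjusted p = 2.03e-05). This holds for the EV libraries, since Cdkn2d ran from 17.9 to 100.4 CPM with a median of 45.8 over all 24 YUMM2.1 libraries and from 35.3 to 43.8 CPM over the 6 of YUMM1.7, which overlap. Cdk6, a target of the INK4 proteins, measured 118 and 325 CPM (-1.47, SE 0.09). In B16-F10 against YUMM2.1, 7 were higher and 7 lower, beside 25% and 29.2%, with Ccnd1 at 242 against 4859 CPM (-4.36, SE 0.12) and Ccnd2, another D-type cyclin gene, at 3368 against 595 CPM (2.47, SE 0.12). Between B16-F10 and YUMM1.7, 10 were higher and 4 lower, beside 26.3% and 28.2%. Between aC3 and YUMM2.1, 0 of 18 were called, where only 1.75% of all genes were.

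Genes listed for methionine salvage and polyamine metabolism, the pathway of Mtap, were higher and lower in the lines with Mtap. The list includes the polyamine breakdown genes Sat1, Smox and Paox. It also holds Prmt5, Wdr77, Clns1a and Riok1, which are not enzymes of salvage or polyamine metabolism. Of 20 tested, 6 were higher and 3 lower in YUMM1.7 than in YUMM2.1, beside 17.8% and 19.3% of all genes. In B16-F10 against YUMM2.1, 5 were higher and 8 lower, beside 25% and 29.2%. In B16-F10 against YUMM1.7, 3 were higher and 10 lower, beside 26.3% and 28.2%, and the 10 became 6 to 7 on leaving out any 1 of the 4 libraries. Odc1, the first enzyme of polyamine synthesis, measured 326 CPM in YUMM1.7 against 132 CPM in YUMM2.1 (log2 fold change 1.29, SE 0.10, edgeR adjusted p = 8.83e-06) and was also higher in B16-F10 (1.00). Adi1, an enzyme of the salvage steps after Mtap, was higher in YUMM1.7 (0.72) and in B16-F10 (58.9 against 10.7 CPM, 2.42, SE 0.19). Smox, which oxidizes spermine, was lower in YUMM1.7 (-2.34, SE 0.16). In both YUMM1.7 and B16-F10, Adi1, Mri1, Odc1 and Wdr77 were called higher than in YUMM2.1, and Amd1, Oaz1 and Smox lower. In aC3 against YUMM2.1, 0 of 20 were called, where only 1.75% of all genes were.

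**Figure D4:**
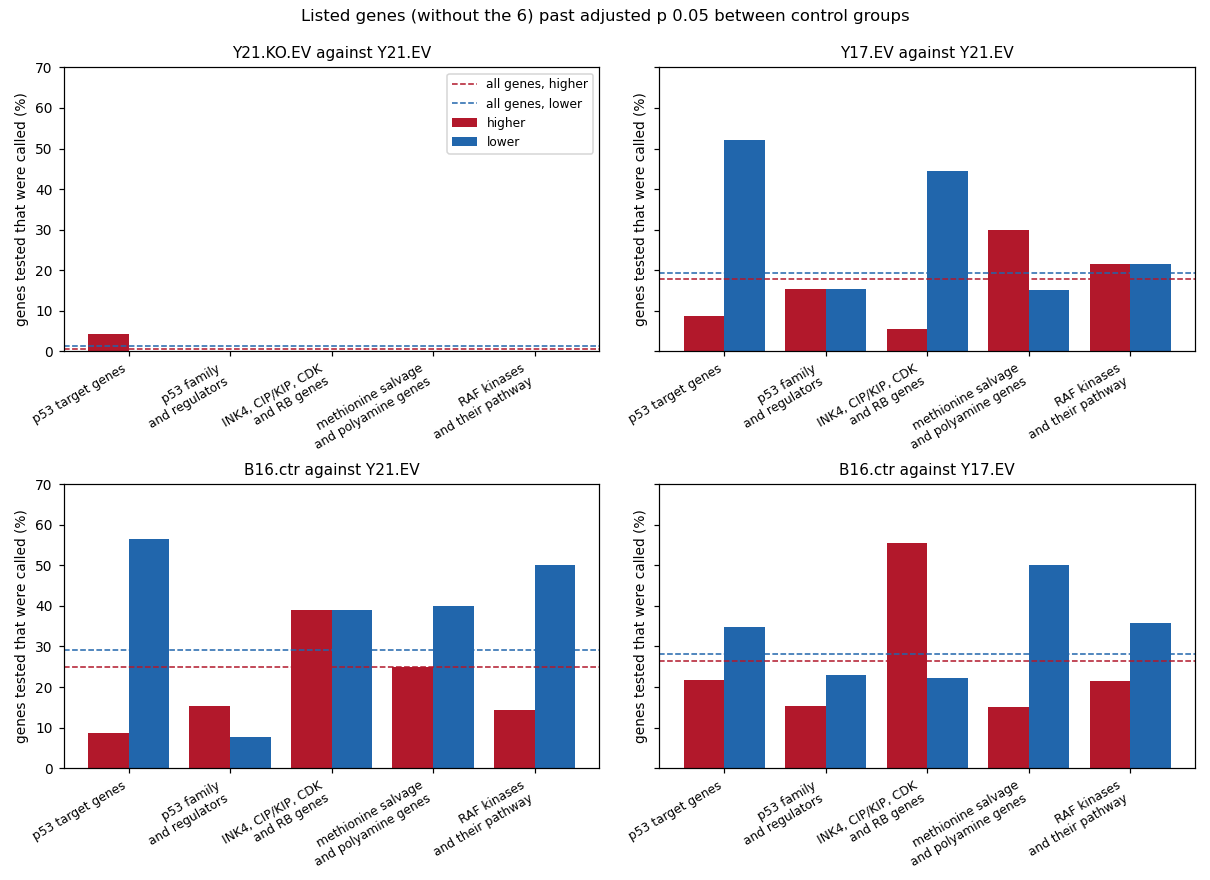
Percent of the tested genes of each fixed list, members left out, that were called higher (red bars) or lower (blue bars) in each of the 4 comparisons between lines, with dashed lines for the percent of all genes called in that direction. Y21 is YUMM2.1, Y17 is YUMM1.7, Y21.KO is aC3 and ctr is the B16-F10 control. The blue bar of the p53 targets stands for 12 of 23 genes in YUMM1.7 and 13 of 23 in B16-F10 against YUMM2.1.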

How the data were processed

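RNA of 40 cell line libraries, 100 ng each, was made into QuantSeq forward 3′ libraries and read as 75-base single reads. Per the labels and the study's methods, the authors aligned reads to mm10 with bowtie2 and deposited RSEM estimated counts of Ensembl genes, as whole numbers, which were used without further rounding. Symbols were found for 99.6% of identifiers. All 40 columns were used and grouped by title. The counting strand is not given in the sources used here.

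CPM used TMM factors over all 40 libraries. Each experiment was fitted separately with edgeR 4.0.16 (R 4.3.3): filterByExpr by group, TMM, quasi-likelihood F test and Benjamini-Hochberg adjustment over all genes tested, called at 0.05. The SE of a log2 fold change is its absolute value divided by the square root of the F statistic. DESeq2 1.42.0, other filters, a replicate block, exchanged labels of YUMM2.1 EV library 2 and WT-Bmal1 library 1, one fit of all 40 libraries and leaving out each library were alternatives. Scripts were tested on simulated data.

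The 6 genes and all gene lists were chosen with earlier results of these data known. From each list, the text names up to 3 called genes in each direction by size of change, provided their mean reached 10 counts and the groups did not overlap, and Cdkn1a, Ccng1 and Ctnnb1 throughout. Some other genes and alleles that this rule or the labels name are not reported here. Gm12606, Dmrta1 and the other neighbors named reached 10 counts in a library. Genes named where a count was 5 or fewer and outside this rule were chosen after their values were seen.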

Additional observations from a re-analysis of the deposited data

Results flagged for a closer look

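The change of Braf with shMyh9#4 differed between dHLH-Bmal1 and EV cells. In the fit of the hairpin experiment, this hairpin called 15.1% of all genes in dHLH-Bmal1 cells and 1.71% in EV cells. In dHLH-Bmal1 cells shMyh9#2, with the lower Myh9 level, called 0.559%. In one fit of all 40 libraries, a test added after the data were seen, the log2 fold change in dHLH-Bmal1 cells minus that in EV cells was 0.71 (SE 0.19, edgeR adjusted p = 0.0205). Both hairpin libraries of dHLH-Bmal1 cells were above both shNC libraries, and the EV libraries overlapped. The same difference for WT-Bmal1 cells minus EV cells was 0.37 (SE 0.19, adjusted p = 0.504). Of 24 such differences computed for Braf, Trp53 and Mdm2 over 8 pairs of comparisons, 1 had an adjusted p under 0.05. The hairpin libraries of dHLH-Bmal1 cells held 3643332 and 6001340 counts, 1 of them the shallowest of the study, and the part of depth in this difference was not tested.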

How the results depend on the processing

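The levels of the 6 genes moved by no more than the spread between libraries in all 48 alternatives run, each another scaling of library size. Levels at 0 in every library of a line could not move. These were Cdkn2a in YUMM2.1 and aC3, and Cdkn2b in YUMM1.7, YUMM2.1 and aC3. Most comparisons called 0 members, which says nothing of stability, and both calls were lost on leaving out a library. In B16-F10 the count of called members was 1 in one fit of all 40 libraries and 0 to 4 on leaving out a library (4 without the first knockout library). In aC3 with WT-Bmal1 it was 0 in one fit of all 40 libraries and 0 to 0 on leaving out a library, and with shMyh9#4 in dHLH-Bmal1 cells it was 0 to 1. Listed genes called between aC3 and YUMM2.1 numbered 1, and 2 with DESeq2 size factors, 3 by the DESeq2 Wald test, 7 with no filter, 20 with exchanged labels of the YUMM2.1 libraries, 2 in one fit of all 40 libraries and 0 to 16 on leaving out a library. On leaving out a library they numbered 26 to 47 between YUMM1.7 and YUMM2.1 (42 in all libraries), 48 to 63 between B16-F10 and YUMM2.1 (54), and 41 to 47 between B16-F10 and YUMM1.7 (54). Braf with shMyh9#4 in EV cells turned from -0.09 to 0.055 without the second hairpin library (range -0.23 to 0.055), and Trp53 in aC3 with WT-Bmal1 from -0.02 to 0.054 and 0.01 without 1 of 2 libraries (range -0.10 to 0.054), none of them called. The cause was not tested.

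Deviations of same-numbered libraries correlated at -0.068 to 0.297, highest for the YUMM2.1 constructs (0.295 and 0.297), and with 2 numbers a group this is a hint from the data, not a pairing given by the labels. The replicate block changed no member call (Mdm2 in aC3 -0.27, adjusted p = 0.0241, and Braf in dHLH-Bmal1 cells 0.65, adjusted p = 0.0100). With the block, 0 listed genes were called between aC3 and YUMM2.1. Depth limits Cdkn2a and Cdkn2b, whose levels in B16-F10 and YUMM1.7 lie near what 1 library can show.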

Other observations

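Gm26525 and Gm26867, adjacent long noncoding RNA genes between Klhl9 and Mtap, exchanged their counts between libraries of 1 line. The first YUMM1.7 EV library held 0 counts of Gm26525 and 164 of Gm26867, and the other 5 YUMM1.7 libraries held 138 to 191 and 0. The B16-F10 control libraries held 64 and 56 counts of Gm26525 and 0 of Gm26867, and the knockout libraries held 11 and 10 of Gm26525 and 43 and 66 of Gm26867.

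Of 14 RAF kinase and pathway genes tested, Braf left out, 3 were higher and 3 lower in YUMM1.7 than in YUMM2.1, 2 were higher and 7 lower in B16-F10 than in YUMM2.1, and 3 were higher and 5 lower in B16-F10 than in YUMM1.7, beside 37.1%, 54.3% and 54.5% of all genes called. Ctnnb1, which encodes β-catenin, measured 1072 ± 34.7 CPM in B16-F10 and 391 ± 8.04 CPM in YUMM2.1 (SD, n = 2), a log2 fold change of 1.42.

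In YUMM2.1 under shNC, Cdkn1a fell with WT-Bmal1 by 0.46 on the log2 scale (SE 0.09, edgeR adjusted p = 0.0012), 1 of 3 p53 targets that fell and 4 that rose among 24 tested, beside 10.6% and 11.7% of all genes. In aC3 with WT-Bmal1, 1 of 20 genes of the methionine salvage and polyamine list rose and 5 fell, beside 4.92% and 6.28% of all genes. Srm, which makes spermidine, fell from 86.1 ± 1.31 to 43.2 ± 2.41 CPM and Odc1 from 156 ± 8.72 to 100 ± 0.0663 CPM (SD, n = 2). Both also fell with dHLH-Bmal1 against the same EV libraries, by 0.43 (Srm) and 0.65 (Odc1) on the log2 scale. In YUMM2.1 under shNC, 2 of the 20 rose and 7 fell with WT-Bmal1, beside 11.7% and 10.6% of all genes. With dHLH-Bmal1 under shNC, 2 rose and 10 fell, where 26.4% of all genes were called, and Srm fell with both constructs. In YUMM2.1 without a hairpin, dHLH-Bmal1 gave 1 higher gene, Odc1, and 2 lower (13.2% of all genes called), and WT-Bmal1 gave 0 calls.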
